A study of Rattus norvegicus with 6 samples.

Results

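The MAP kinase phosphatase genes Dusp1, Dusp6 and Dusp7 were followed in hearts of 3 rats after cardiopulmonary bypass (CPB, an extracorporeal circuit that pumps and oxygenates the blood in place of heart and lungs) and hearts of 3 sham-operated rats. They were chosen by gene symbol in the platform annotation, and each has 1 probe, so they make up 3 of the 1185 probes and 3 of the 1103 named genes on the array. Total RNA of the whole heart was hybridised to 1 array per animal. The labels give no strain, age, sex, sampling time or length of bypass, and name inflammation and cytokines in the heart as the subject. The choice of these genes was made with their values in these hearts known, so their differences between CPB and sham are given below as descriptions without a test.

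Dual-specificity phosphatases of this family switch off MAP kinases by removing phosphate from both the threonine and the tyrosine of the activation loop. Dusp1 encodes a nuclear enzyme that acts on p38, JNK and ERK and whose transcript is induced within minutes by stress, growth factors and glucocorticoids. Dusp6 and Dusp7 encode cytoplasmic enzymes that prefer ERK, and Dusp6 transcription itself follows ERK activity, so it forms a negative feedback loop. In the heart these enzymes are known as brakes on MAP kinase signalling during stress, ischaemia and growth of the muscle.

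The genes lie on different rat chromosomes. In RefSeq on the GRCr8 assembly, Dusp1 spans 17184853 to 17187646 on chromosome 10, Dusp6 spans 35979502 to 35983834 on chromosome 7 and Dusp7 spans 115888091 to 115895126 on chromosome 8. Their upstream sequence from the RefSeq promoter table is shown because the inducible Dusp1 is compared here with the cytoplasmic pair, and all 3 genes had an entry. The stretches lie on the plus strand and end just before the first annotated base of the gene. They are chr10:17184603-17184852 for Dusp1, chr7:35979354-35979501 for Dusp6 and chr8:115887841-115888090 for Dusp7. Capitals mark matches on either strand to the core of a cyclic AMP response element, to an E-box and to a CCAAT box, whose letters are given after the sequences.
Dusp1: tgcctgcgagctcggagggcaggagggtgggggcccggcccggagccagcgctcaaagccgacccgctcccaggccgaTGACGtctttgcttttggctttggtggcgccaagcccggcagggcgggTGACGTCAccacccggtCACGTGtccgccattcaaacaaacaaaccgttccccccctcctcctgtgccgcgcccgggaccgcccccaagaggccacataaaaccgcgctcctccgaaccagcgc
Dusp6: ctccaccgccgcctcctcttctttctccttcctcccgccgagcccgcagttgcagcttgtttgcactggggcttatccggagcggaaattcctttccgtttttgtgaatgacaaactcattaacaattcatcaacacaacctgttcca
Dusp7: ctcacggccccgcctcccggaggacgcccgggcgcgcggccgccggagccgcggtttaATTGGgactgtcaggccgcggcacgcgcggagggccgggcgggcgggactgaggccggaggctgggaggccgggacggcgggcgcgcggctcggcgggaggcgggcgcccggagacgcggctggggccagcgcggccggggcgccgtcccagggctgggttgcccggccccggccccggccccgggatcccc

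The core of the cyclic AMP response element was searched as TGACG on both strands. The Dusp1 stretch held 3 matches, and 2 of these overlap as the full palindrome, which reads TGACGTCA and begins 124 bases before the start. Dusp6 and Dusp7 held no core in the 250 bases before their listed start. Over the 33469 rat promoters in the table, 18.2% held the core and 1.59% the palindrome in that window. Dusp1 also held the E-box, searched as CACGTG and found in 5.59% of promoters. The CCAAT box, found in 34% of promoters, stood in Dusp7 on the opposite strand. Dusp6 held it too, past the printed stretch, where another annotated transcript of the gene already begins. The ETS site was searched on both strands as CCGGAA alone, and shorter forms of it were not searched. That CCGGAA form was in 12.6% of promoters and in none of these 3. The glucocorticoid receptor element, searched by one arm of its palindrome as AGAACA, was in 17.5% of promoters and likewise in none of these 3. The Sp1 site, searched as GGGCGG and found in 30.5% of promoters, had 2 matches each in Dusp1 and Dusp7 and 0 in Dusp6. The AP-1 site (6.34% of promoters), the TATA box (12.9%) and the CArG box (1.5%) were also searched and were in none of the 3. The windows also differed in base composition, with 68.8% G and C in Dusp1, 55.6% in Dusp6 and 84.4% in Dusp7 against a median of 51.2%. These matches describe the letters alone.

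All 3 probes lay within 12 steps of the lowest level on each array, so the values they can take are coarse. These steps are the equally spaced rungs that an array's deposited levels form on a linear scale, starting from a lowest level. A step was 80.1 linear units on CPB replicate 2 but 359.6 on sham replicate 3, and between 10.7% and 47.3% of probes sat at an array's lowest level. The median deposited level ran from 8.51 to 9.84 (log2), lowest on CPB replicate 1. Levels below are log2 values after quantile normalization unless they are called deposited, and n = 3 hearts per group, which limits the precision of every difference. The first principal component (31.9% of the variance) set both arrays numbered 3 apart from the other 4. Values without them are given for each of the 3 phosphatases. The sampled tissue carried its defining markers, since all 6 measured cardiomyocyte markers, among them the alpha myosin heavy chain gene Myh6, were above the lowest level on all arrays.

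Dusp1, the inducible nuclear phosphatase, had a lower mean in CPB hearts, but the groups overlapped. Its normalized level was 8.99, 10.09 and 9.52 in CPB replicates 1, 2 and 3. In sham replicates 1, 2 and 3 it was 9.76, 10.09 and 10.87. CPB replicates 1 and 3 lay below all sham hearts, while CPB replicate 2 equalled sham replicate 2 and lay above sham replicate 1. The CPB mean was 9.53 ± 0.55 (SD, n = 3) and the sham mean 10.24 ± 0.57 (SD, n = 3), so they differed by -0.71, or 1.63-fold lower, which is 1.26 times the pooled SD within groups. A single heart moved this value, from -0.71 to -0.41 without sham replicate 3, which held the highest level, and to -0.42 without CPB replicate 1, which held the lowest. Without both arrays numbered 3 it was -0.40. Without CPB replicate 2 it was -0.96 and the groups no longer overlapped.

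For Dusp1 the grid was coarsest in the CPB hearts with the lowest values. Counted from the lowest level, the probe was on step 1, 10 and 1 in CPB replicates 1, 2 and 3, and on step 2, 6 and 4 in the sham replicates. On CPB replicate 1, 271 probes shared that first step, and the next step up would raise the deposited level by 0.61 log2. On CPB replicate 3, 257 probes shared it and the next step was 0.45 log2 away. On CPB replicate 2 a step was worth 0.10 log2. With each level known to within 0.5 of a step either way, the deposited difference of -0.89 could lie anywhere from -1.29 to -0.53.

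**Figure D1:**
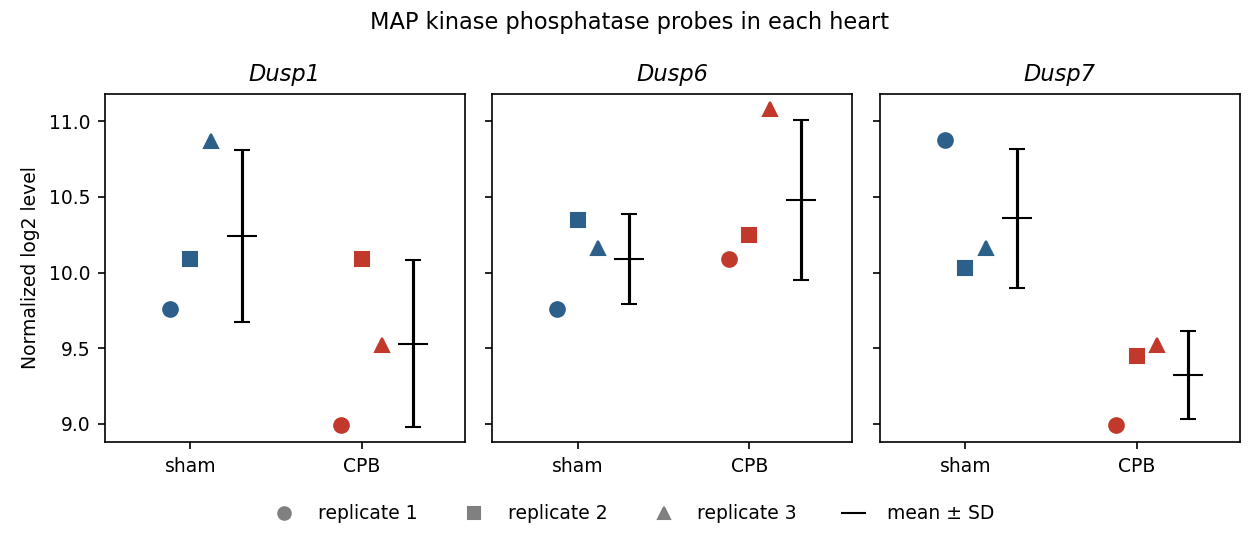
Normalized log2 level (y axis) of the Dusp1, Dusp6 and Dusp7 probes in each sham and CPB heart, with 1 point per heart, the marker shape giving the replicate number, and black bars giving the mean ± SD of 3 hearts. Dusp7 is the 1 gene of the 3 whose CPB points (8.99 to 9.52) all lie under its sham points (10.03 to 10.88).

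Dusp6, the cytoplasmic ERK phosphatase of the feedback loop, had a slightly higher mean in CPB hearts, and a single heart carried most of it. Its normalized level was 10.09, 10.25 and 11.08 in CPB replicates 1, 2 and 3. In sham replicates 1, 2 and 3 it was 9.76, 10.35 and 10.16. CPB replicate 3 stood above all other hearts, and CPB replicates 1 and 2 lay within the sham range. The CPB mean was 10.48 ± 0.53 (SD, n = 3) and the sham mean 10.09 ± 0.30 (SD, n = 3), so they differed by 0.39, or 1.31-fold higher, which is 0.89 of the pooled SD. Without CPB replicate 3 the difference was 0.09, and without both arrays numbered 3 it was 0.10. It also moved with the scaling, to 0.18 in the values as deposited and to 0.57 after each array was scaled to the same median, where the groups no longer overlapped. Without sham replicate 1, which held the lowest level, it was 0.24.

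Dusp6 was the best resolved of the 3 in CPB hearts. It was on step 4, 12 and 5 in CPB replicates 1, 2 and 3, and on step 2, 8 and 2 in the sham replicates. The next step up was worth 0.37 log2 on sham replicate 1, 0.13 on sham replicate 2 and 0.36 on sham replicate 3. With 0.5 of a step either way, the deposited difference of 0.18 could lie from -0.08 to 0.45, so the grid alone leaves its sign unsettled.

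Dusp7, the other cytoplasmic ERK phosphatase, was lower in each CPB heart than in any sham heart. Its normalized level was 8.99, 9.45 and 9.52 in CPB replicates 1, 2 and 3. In sham replicates 1, 2 and 3 it was 10.88, 10.03 and 10.16. The highest CPB value and the lowest sham value were 0.51 log2 apart. Counted from the brightest of the 1185 probes of an array, Dusp7 ranked 725, 536 and 497 in the CPB hearts and 174, 345.5 and 298 in the sham hearts, with tied probes given their mean rank. The CPB mean was 9.32 ± 0.29 (SD, n = 3) and the sham mean 10.36 ± 0.46 (SD, n = 3), so they differed by -1.04, or 2.05-fold lower, which is 2.69 times the pooled SD. Of all 1185 probes, 2.62% had groups apart with CPB lower and 1.6% had them apart with CPB higher (4.22% in all), and Dusp7 is 1 such probe of the 3 described here. Only 4 of the 1185 probes had a difference further below 0. Since Dusp7 was chosen with this contrast known, these positions are a description. In RNA from whole tissue, fewer cells that express a gene and less of its RNA per cell cannot be told apart.

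The gap for Dusp7 was narrower on the deposited scale. There it was 8.51, 9.21 and 9.75 in CPB replicates 1, 2 and 3 and 10.96, 9.81 and 10.32 in the sham replicates, so CPB replicate 3 and sham replicate 2 were 0.06 log2 apart. The probe was on step 1, 4 and 1 in the CPB replicates and on step 5, 5 and 2 in the sham replicates. Within 0.5 of a step, CPB replicate 3 spans 9.45 to 9.99 and sham replicate 2 spans 9.70 to 9.90, so these hearts cannot be ordered on that scale. The deposited difference of -1.21 could lie from -1.62 to -0.84. The difference ranged from -1.30 to -0.72 over the 11 alternatives. Most of these are weak checks of a gap that is already there. A block or a pseudocount keeps the order of the hearts on a given scale. Leaving hearts out removes points, and the remaining arrays were then quantile normalized afresh. Without both arrays numbered 3 the difference was -1.30.

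**Figure D2:**
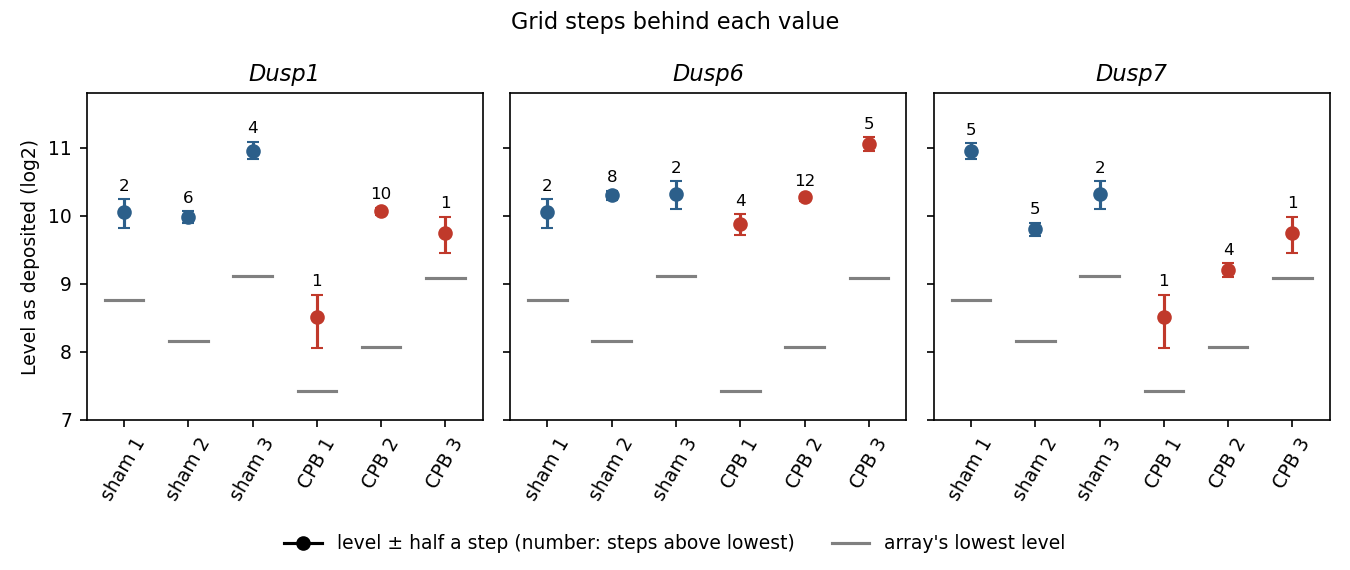
Level as deposited (log2, y axis) of each gene on each array (x axis, sham in blue, CPB in red), with bars spanning 0.5 of a grid step either way, the number of steps above the lowest level printed over each point and the array's lowest level as a grey line. Dusp1 and Dusp7 sit on step 1 in CPB replicates 1 and 3, where the bars are widest.

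Because a single scaling factor per array shifts all probes of a heart alike, the genes were also compared within each array. Quantile normalization is no such factor and did change these differences. On CPB replicate 1, Dusp7 minus Dusp6 was -1.10 normalized and -1.37 as deposited. The level of such a difference depends on the probes and is not read here. Its change between groups was described for the 3 possible pairs, again without a test. Dusp7 minus Dusp6 was -1.10, -0.80 and -1.56 in CPB replicates 1, 2 and 3 and 1.13, -0.33 and 0.00 in the sham replicates. These groups did not overlap. The share of other probe pairs with groups apart was not counted, and the separation of Dusp7 itself was known beforehand. The CPB mean was -1.16 ± 0.38 (SD, n = 3) and the sham mean 0.27 ± 0.76 (SD, n = 3), a change of -1.42. It was -1.39 in the values as deposited, and it ranged from -1.67 to -1.02 over the 11 alternatives. Most of these leave hearts out or add a block, so they are a weak check of the gap.

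The nuclear Dusp1 also stood lower against Dusp6 in CPB hearts on average, with overlap. Dusp1 minus Dusp6 was -1.10, -0.16 and -1.56 in CPB replicates 1, 2 and 3 and 0.00, -0.26 and 0.72 in the sham replicates. CPB replicate 2 lay within the sham range. The means were -0.94 ± 0.71 (SD, n = 3) and 0.15 ± 0.51 (SD, n = 3), a change of -1.09, which shrank to -0.51 without both arrays numbered 3.

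The differences of Dusp1 and Dusp7 were not separated by these hearts. Dusp1 minus Dusp7 was 0.00, 0.64 and 0.00 in CPB replicates 1, 2 and 3 and -1.13, 0.06 and 0.72 in the sham replicates. The CPB values lay wholly inside the sham range. The zeros on CPB replicates 1 and 3 mark a shared first step of the grid. The change was 0.33 with a pooled SD of 0.71, and it turned to -0.19 without sham replicate 1. It was 0.75 without sham replicate 3 and 0.90 without both arrays numbered 3. Without CPB replicate 2 it was 0.13. The mean differences of the nuclear Dusp1 and the cytoplasmic Dusp7 were both below 0, while the sign of the cytoplasmic Dusp6 is not settled by its grid (-0.08 to 0.45 as deposited).

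**Figure D3:**
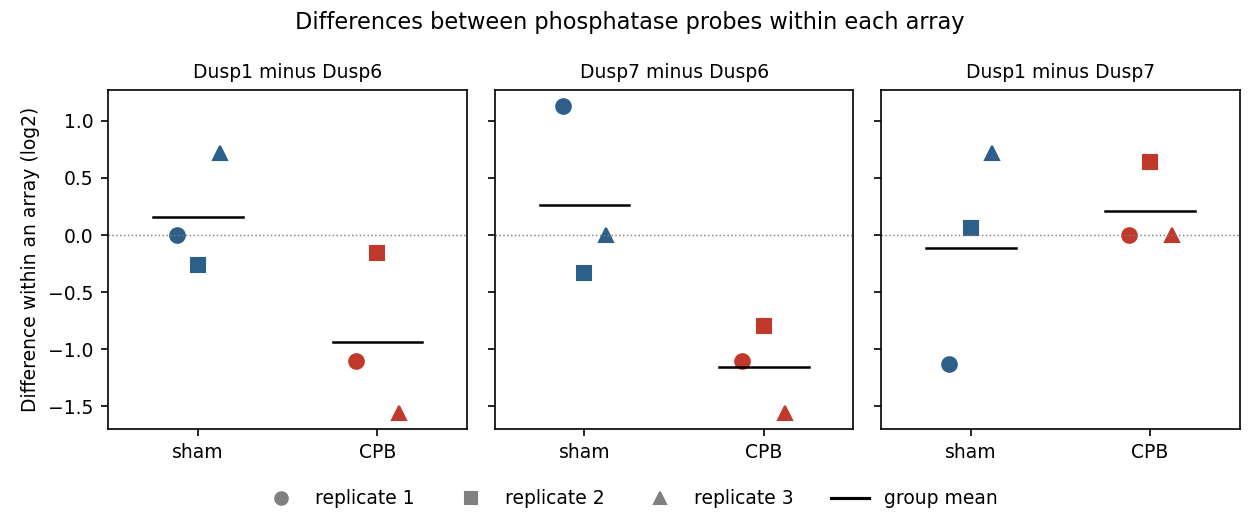
Difference between the normalized log2 levels of 2 phosphatase probes on the same array (y axis) in sham and CPB hearts, with 1 point per heart, the marker shape giving the replicate number and a black line at the group mean. The groups are apart for Dusp7 minus Dusp6 (CPB -1.56 to -0.80, sham -0.33 to 1.13) and overlap for the other pairs.

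**Figure D4:**
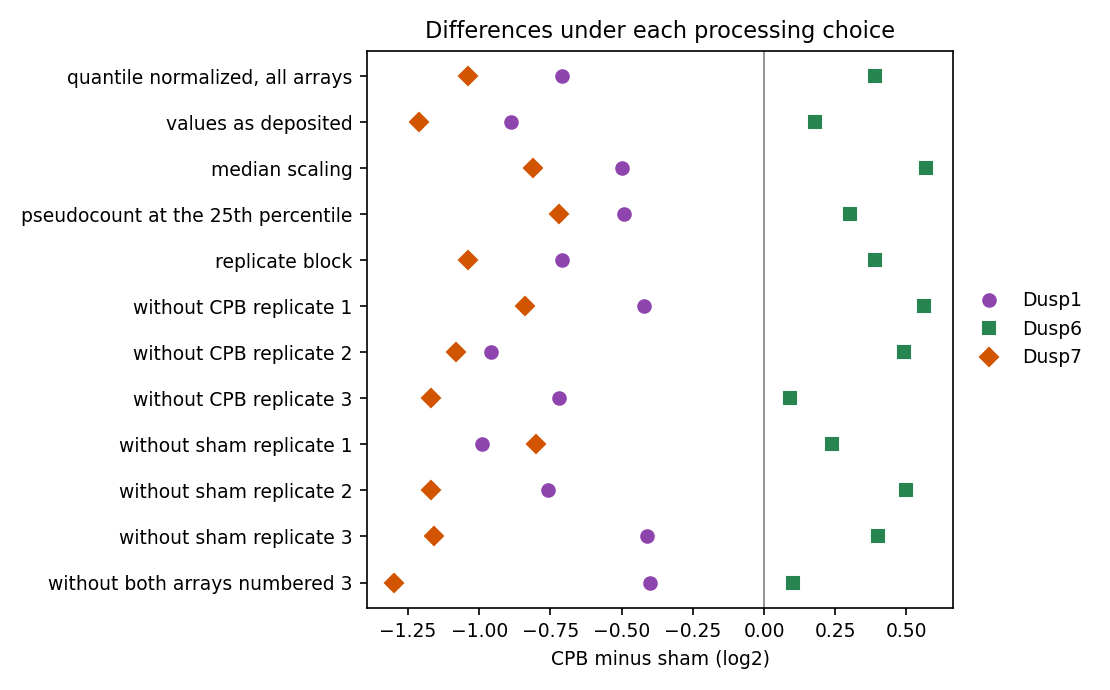
CPB minus sham difference (log2, x axis) of Dusp1, Dusp6 and Dusp7 under each processing choice (rows). Dusp1 and Dusp7 stay left of 0 in all rows and Dusp6 stays right of it, with Dusp6 at 0.09 without CPB replicate 3.

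Across all 1185 probes the limma fit called 0 at an adjusted p under 0.05 (0%), and 35 (2.95%) had an unadjusted p under 0.05. The median difference over all probes was -0.03, against -0.29 in the values as deposited and 0.11 after median scaling. These are the background for the other genes of the pathway, none of which passed the threshold in either direction.

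The phosphatase and kinase lists were thinly covered by this array. None of 19 other MAP kinase phosphatase genes was measured, so the family is represented by the 3 genes above. Of 46 ERK cascade genes the array held Pebp1, which encodes an inhibitor of Raf. Pebp1 differed by 0.05 (SE 0.31, limma adjusted p = 1). Of 42 genes of the JNK and p38 cascades it held the upstream kinases Map3k12, at -0.18 (SE 0.16, limma adjusted p = 0.909), and Map3k1, at 0.11 (SE 0.26, limma adjusted p = 0.999). Map3k12 was at the lowest level on 2 arrays of each group, and Map3k1 on 1 array of the CPB group and 2 of the sham group. The only growth factor receptor measured of 35 was Fgfr2, which differed by -0.12 (SE 0.21, limma adjusted p = 0.999) and was above the lowest level on the arrays numbered 2 alone.

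Of 61 other protein phosphatase genes, 9 were measured and 0 passed the threshold, with 2 above 0, 5 below and 2 at 0. Their median difference was -0.01, against -0.03 for all probes, and the groups overlapped for all 9. The tyrosine phosphatase Ptpn12 differed by -0.21 (SE 0.35, limma adjusted p = 0.999) and was 0.07 after median scaling. It ran from -0.47 without CPB replicate 2 to -0.01 without CPB replicate 1. The tyrosine phosphatases Ptpn18 and Ptprj were at -0.27 (SE 0.18, limma adjusted p = 0.909) and -0.12 (SE 0.21, limma adjusted p = 0.999). Ptpn18 was above the lowest level on sham replicate 2 alone, without which it was at -0.02, and Ptprj on the arrays numbered 2. The catalytic subunits of protein phosphatase 1, encoded by Ppp1ca, Ppp1cb and Ppp1cc, were bright enough to read on all arrays and differed by -0.01 (95% interval -0.64 to 0.62), 0.07 (-0.56 to 0.71) and 0.13 (-0.54 to 0.79). These 3 were named after their values were seen.

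Of 48 immediate-early and ERK target genes, 9 were measured and 0 passed the threshold. Of these, 4 were above 0 and 5 below, with a median of -0.09. Socs3, which encodes a feedback inhibitor of JAK-STAT signalling, was at 10.09, 10.45 and 10.81 in CPB and 9.20, 10.58 and 9.49 in sham replicates 1, 2 and 3. Its difference was 0.69 (SE 0.39, limma adjusted p = 0.909), and the groups overlapped. Socs3 was at 1.09 without sham replicate 2, at 0.44 without sham replicate 1, at 0.39 without both arrays numbered 3 and at 0.40 in the values as deposited. The chemokine gene Cxcl1 was above the lowest level on CPB replicate 2 alone, on step 17 (limma adjusted p = 0.909). That heart also had the highest Dusp1 level of the CPB group. Dusp1 was higher still on sham replicate 3 (10.87), where Cxcl1 was at the lowest level. The zinc finger factor gene Egr2 was at the lowest level on all arrays but sham replicate 1 (limma adjusted p = 0.909).

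Of 24 glucocorticoid-induced genes, a class to which Dusp1 belongs, 3 were measured and 0 passed the threshold. Cebpd, a transcription factor of the acute phase, was at 11.64, 12.82 and 8.68 in CPB and 9.76, 11.93 and 9.49 in sham replicates 1, 2 and 3. Both arrays numbered 2 held the highest value of their group, and CPB replicate 3 was at its lowest level. The Cebpd difference was 0.65 (SE 0.79, limma adjusted p = 0.958) and turned to -0.24 without CPB replicate 2. Glutamine synthetase (Glul) and the receptor inhibitor gene Errfi1 were at 0.18 (SE 0.37) and 0.07 (SE 0.32), and both changed sign with the scaling (limma adjusted p = 0.999 for each).

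Of the measured marker genes of heart cell types, 0 passed the threshold. The summed level of the 3 measured fibroblast markers of 11 (Sparc, Dcn and Thy1) ran from 13.56 to 14.45 in CPB and from 14.97 to 15.18 in sham hearts. Of these 3, Sparc alone had groups apart, with a difference of -1.50 (SE 0.33, limma adjusted p = 0.371). Dcn differed by -0.51 (SE 0.44) and Thy1 by -0.10 (SE 0.35), both with overlap, so the gap between the sums comes from 1 gene. The sum of the 5 measured leukocyte markers of 20 ran from 12.84 to 13.60 in CPB and from 13.33 to 13.63 in sham hearts, with overlap, and 4 differences were below 0, from -1.07 for S100a9 to -0.02 for Aif1, while the T cell gene Cd8a was at 0.92. Of these markers, Thy1 was at the lowest level on 1 sham array and the macrophage gene Aif1 on 1 array of each group. The sum of the 6 cardiomyocyte markers of 19 ran from 19.23 to 19.26 in CPB and 19.23 to 19.30 in sham hearts. Tnnt2 and Myh6, the brightest of them, held the values 18.01 and 17.70 on each array and only traded places. Quantile normalization gives all arrays the same top values, so this sum could hardly vary and does not measure cardiomyocyte content. The 2 smooth muscle markers of 8 ran from 12.92 to 13.83 in CPB and 13.03 to 13.41 in sham hearts, and of 10 endothelial markers 0 were measured. These sums overlapped too. Of the 6 cardiomyocyte markers, 2 had groups apart, against 4.22% of all probes, and in opposite directions. Tnni3 was higher in CPB hearts, at 0.47 (SE 0.28), and Pln lower, at -0.28 (SE 0.27), with limma adjusted p = 0.909 for each. The part of these cell types in the lower Dusp1 and Dusp7 values was not tested.

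Genes whose pattern over the 6 arrays was most like each phosphatase were found among 466 other named genes above the lowest level on all arrays, using Pearson's r as a description. For Dusp1 these were Nup107, a nuclear pore component (r = 0.952), the calcium pump regulator Pln (0.912), the secreted hormone gene Stc1 (0.878), the zinc finger gene Zfp148 (0.863) and the laminin chain gene Lamb2 (0.862). Nup107 and Stc1 also sat on the first grid step on CPB replicates 1 and 3, at 8.99 and 9.52, the same values as Dusp1. For Dusp6 they were the folate enzyme gene Mthfd1 (0.980), the synaptic regulator Cplx1 (0.977), the small GTPase gene Arl1 (0.912), the clathrin adaptor subunit Ap2m1 (0.906) and the adaptor gene Sh2b1 (0.896). Grid levels were shared here too, since Mthfd1, Cplx1 and Sh2b1 all held 9.20, 9.76 and 9.49 on sham replicates 1, 2 and 3. For Dusp7 the genes most alike were the replication helicase subunit Mcm6 (0.980) and the transcription factor genes Nfic (0.955) and Zeb1 (0.946). They were followed by the tropomodulin gene Tmod2 (0.904) and the intermediate filament gene Gfap (0.895). Of these 15, Pln fell furthest on the deposited scale, to 0.694. The arrays share scaling and grid, and the 6 points of each r are few against 466 candidates.

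The phosphatases were not among each other's nearest genes. Over the same 6 arrays r was 0.483 between Dusp1 and Dusp7, rank 77 of 466 for Dusp1. It was -0.119 between Dusp1 and Dusp6 and -0.449 between Dusp6 and Dusp7. In the values as deposited these became 0.719, 0.282 and 0.144, so the sign of both correlations with Dusp6 depended on the scaling.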

How the data were processed

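Whole-heart RNA of 3 CPB and 3 sham rats went on 1 array each, and groups and replicate numbers were taken from the sample titles, which number the rats and give nothing else on how they were kept or sampled. No label names a unit. The authors' deposited values behave as natural log values, more exactly as inverse hyperbolic sines, since undoing that function leaves equally spaced levels within each array (to within 9.25e-06 of a step). How the authors scanned, background-corrected or normalized the arrays is not given in the sources used here.

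Because the arrays' linear medians differed by up to 2.52 times, the linear levels (2 times the sinh of each value) were quantile normalized, averaging ties, before log2 without a pseudocount. All 1185 probes were fitted with limma 3.58.1 in R 4.3.3 (variance trend, two-sided, Benjamini-Hochberg over all probes, threshold 0.05), and the fit was tested on simulated data. An exact permutation test of 3 against 3 arrays cannot go below p = 0.1. Probe symbols came from the platform annotation, updated through gene identifiers: 1113 probes have 1 symbol, 2 have several and 70 are unnamed here. The brightest probe stood for a gene with several.

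The members, the 7 pathway lists and the 5 marker lists were chosen with earlier results of these data known. Named genes were the members, the 3 genes with the smallest unadjusted p in each pathway list and the 5 genes most like each member by r. Same-numbered CPB and sham arrays deviated together (correlations over probes of 0.240, 0.277 and 0.296), so the numbers may pair the hearts, though no label says so. Within each group, replicate 2 had the fewest probes at the lowest level (CPB 10.7%, sham 20.5%) and replicate 3 the most (47.3% and 43.3%). A pairing of hearts and a trait shared by the arrays cannot be told apart here. The alternatives were no further normalization (the values as deposited), scaling to the median and a pseudocount at the 25th percentile. Others were only the probes brighter than the median, the replicate number as a block, and each array or both arrays numbered 3 left out. After arrays were left out, the remaining ones were quantile normalized afresh.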

Additional observations from a re-analysis of the deposited data

How the results depend on the processing

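Over 11 alternatives Dusp1 and Dusp7 stayed negative (-0.99 to -0.40 and -1.30 to -0.72) and Dusp6 positive (0.09 to 0.57), and each moved by less than 1 SD between replicates. Leaving out 1 array gave -0.99 to -0.41, -1.17 to -0.80 and 0.09 to 0.56. Dusp1 minus Dusp7 turned negative in 1 of 11, without sham replicate 1 (-0.19). The fit called 0 probes in 10 of 12 alternatives and 1 probe, Sparc, in the values as deposited and without CPB replicate 1, so leaving out 1 array gave 0 to 1 called probes. With the replicate number as a block 0 probes were called and 38 had an unadjusted p under 0.05, against 35 without it, and the block changed no call. Without sham replicate 2 that count was 72, without both arrays numbered 3 it was 59, without CPB replicate 1 it was 21 and after median scaling 20.

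Of 148 comparisons of the 13 pathway genes named by rule with an alternative, 131 kept their direction or rounded to 0. The other 17 reversed, and 0 changed a call (smallest limma adjusted p = 0.603). Median scaling turned Ptpn12 to 0.07, and the values as deposited turned Map3k1 to -0.06, Glul to -0.04 and Errfi1 to -0.03. Errfi1 was -0.12 without both arrays numbered 3. Over the fits without 1 array, Socs3 ran from 0.44 to 1.09, Cxcl1 from 0.01 to 1.08, Ptpn18 from -0.40 to -0.02, Ptpn12 from -0.47 to -0.01, Errfi1 from -0.12 to 0.33, Pebp1 from -0.21 to 0.33, Map3k12 from -0.27 to 0.02, Map3k1 from -0.15 to 0.32, Cebpd from -0.24 to 1.85, Glul from -0.05 to 0.50, and Ptprj and Fgfr2 each from -0.29 to 0.12. The cause was not tested. Signal above the lowest level limits Dusp1 and Dusp7, which lie on step 1 in CPB replicates 1 and 3.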
